A study of Mus musculus with 9 samples.

Results

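Receptors for immunoglobulin and for colony-stimulating factors, together with the transcription factors of the granulocyte and monocyte lineages, were examined in long-term hematopoietic stem cells (LT-HSCs) of 3 mouse genotypes. The 10 genes were chosen by their role, with earlier results of these data known, out of 47643 genes in the count table. They comprise 6 receptor genes (Fcgr3, Fcgr2b, Csf1r, Csf3r, Csf2ra and Csf2rb) and 4 transcription factor genes (Cebpa, Cebpe, Spi1 and Irf8). All 10 had enough counts to be tested, as did 18205 genes in all. LT-HSCs were sorted as donor-derived Lin-cKit+Sca1+Flk2-CD48-CD150+ bone marrow cells from lethally irradiated recipients, so that cells carrying mature lineage antigens should have been gated out. TKO cells carried Pik3ca lox/lox, Pik3cb lox/lox, Pik3cd-/- and Mx1-Cre, δKO cells carried the same floxed and deleted alleles without the Cre transgene, and WT cells carried Mx1-Cre alone. Pik3ca, Pik3cb and Pik3cd encode the class IA PI3K catalytic subunits P110α, P110β and P110δ, and Mx1-Cre is a Cre transgene under an interferon-inducible promoter that is active throughout hematopoiesis and in some other tissues. Recipients in all 3 groups, 6 to 8 weeks old at transplantation, received 2 injections of 250 μg of the interferon inducer pIpC 48 hours apart, and marrow was taken 4 weeks later. TKO and δKO differ in the Cre transgene as well as in Pik3ca and Pik3cb, and δKO and WT differ in it as well as in Pik3cd.

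Myeloid commitment in the marrow is marked by a gradual gain of these genes. PU.1, encoded by Spi1, and C/EBPα, encoded by Cebpa, open the myeloid program and bind regulatory elements of several colony-stimulating factor receptor genes, after which C/EBPε drives granule formation in granulocyte precursors and IRF8 favors monocytes and dendritic cells. G-CSF, M-CSF and GM-CSF act through the receptors encoded by Csf3r, Csf1r and the Csf2ra and Csf2rb pair, and class IA PI3K is one of the enzymes these receptors engage. CD16/32, the antigen that separates granulocyte-monocyte progenitors from other myeloid progenitors in flow cytometry, is the product of Fcgr3 and Fcgr2b.

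In each genotype 3 libraries were sequenced, with 31300343 to 60386097 reads counted on genes per library. Levels are given as CPM, counts scaled to a common library size with edgeR's TMM factors, and libraries are listed in the order replicate 1, 2 and 3. The third δKO library has a number in the count table that no sample label has and is called the unnumbered δKO library. The deposited normalized values, which are these counts divided by a size factor, name the same library replicate 3. The labels call the libraries biological replicates, whereas the protocol pools the marrow of the 7 recipients in a group. Xist was at 32.1, 5340 and 45.6 CPM in WT, at 6393, 4910 and 59.5 in δKO and at 4162, 3227 and 36.5 in TKO. It ranged at least 107-fold within every genotype, so the libraries of a genotype were not equal draws from 1 pool. More libraries had high Xist in δKO and in TKO than in WT, and no fit took this into account. Of the targeted genes, Pik3cb was measured at 33.5, 25.5 and 33.9 CPM in TKO and at 63.6, 44.6 and 60.4 in WT. In δKO it was at 101, 33.25 and 68.75 CPM, so that δKO replicate 2 lay within the TKO range. Pik3cd was measured at 71.2, 73.1 and 73.5 CPM in TKO and at 38.5, 91.2 and 71.1 in δKO, against 98.2 to 139 in WT. Pik3ca, whose excision is not seen in whole-gene counts, ranged from 52.8 to 68.0 CPM in TKO and from 45.8 to 65.0 in WT.

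All 3 TKO libraries lay below all 3 WT libraries for 6 of the 10 genes, namely Fcgr3, Fcgr2b, Csf3r, Csf2ra, Cebpa and Cebpe. Of all 18205 genes tested, 7.47% lay below WT in the same way. Csf1r, Spi1 and Irf8 had lower means in TKO than in WT but overlapping libraries, and Csf2rb had about the same mean in both. Against δKO, 1 of the 10 genes, Csf3r, lay below in every TKO library, where 4.74% of all genes did. Within δKO the highest library exceeded the lowest by 1.5-fold for Csf3r and by 151-fold for Cebpe. With fewer libraries groups separate more often. The count against WT was 8 of 10 without WT replicate 3, beside 12.5% of all genes, and 8 of 10 without TKO replicate 2, beside 15.5%. Against δKO it was 5 of 10 without δKO replicate 1, beside 11.5% of all genes, and 2 of 10 without TKO replicate 2, beside 9.8%. In bulk RNA, fewer cells with a transcript and less of it per cell cannot be told apart.

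**Figure D1:**
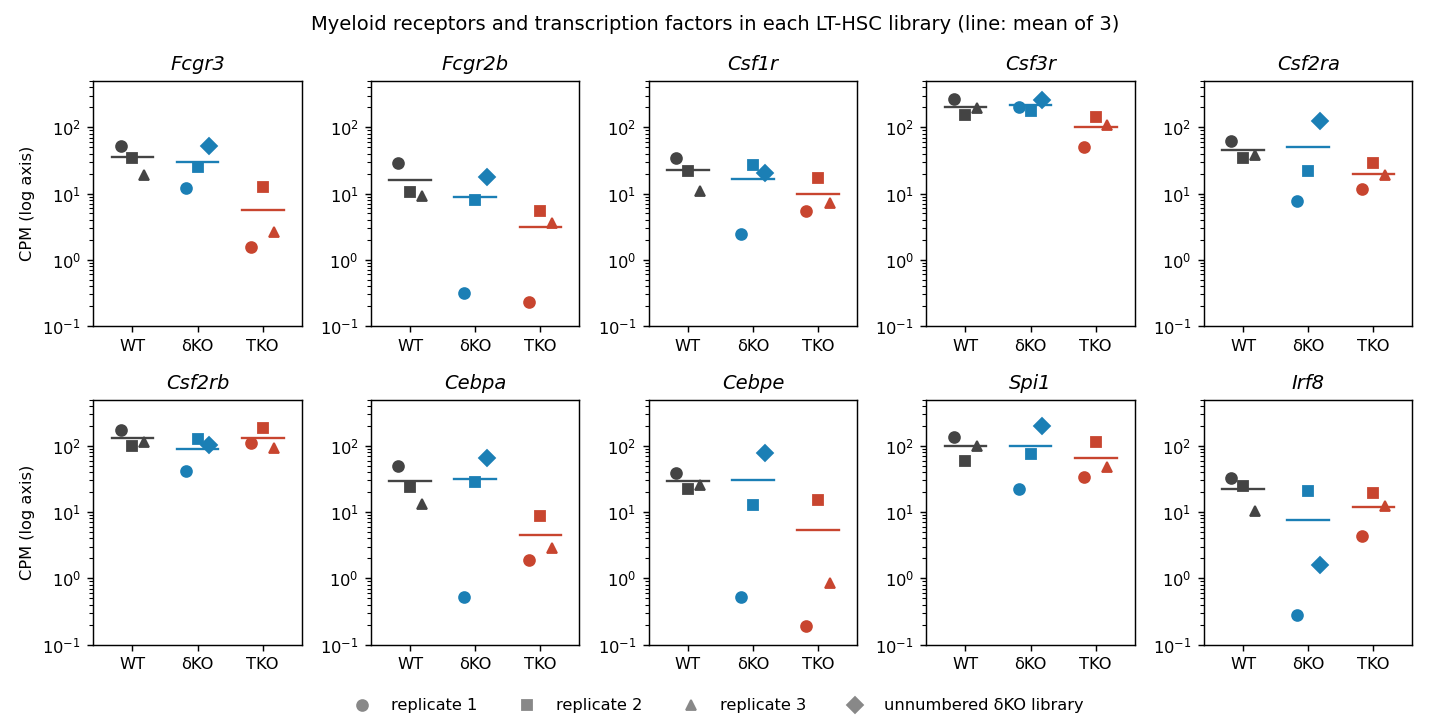
Level of each gene in each library, in CPM on a log axis, with 1 panel per gene, 1 symbol per library and a line at the mean of the 3 libraries of a genotype. TKO replicate 2 was the highest TKO library for all 10 genes, and δKO replicate 1 was the lowest of the 9 libraries for 6 of them.

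The immunoglobulin receptor genes lie in 1 cluster on chromosome 1 of mm10, Fcgr3 at chr1:171051174-171064935 and Fcgr2b at chr1:170958617-170976547, both on the minus strand. Fcgr3 (ENSMUSG00000059498.13) encodes the activating low-affinity IgG receptor FcγRIII. It was measured at 52.4, 34.0 and 19.1 CPM in WT libraries, at 12.1, 25.3 and 53.1 in δKO libraries and at 1.55, 12.5 and 2.65 in TKO libraries. The highest TKO library was below the lowest WT library, and it slightly exceeded δKO replicate 1. Mean levels (± SD, n = 3) came to 35.2 ± 16.7 CPM for WT, 30.2 ± 20.9 for δKO and 5.56 ± 6.01 for TKO. By edgeR's test, TKO differed on the log2 scale by −2.67 from WT (standard error 0.813, adjusted p = 1.00) and by −2.45 from δKO (standard error 0.806, adjusted p = 0.465). Fcgr3 was called lower in TKO than in WT by DESeq2 on these groups alone (adjusted p = 0.0117), whereas DESeq2 on all 9 libraries gave an adjusted p of 0.104.

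Fcgr2b (ENSMUSG00000026656.15) encodes the inhibitory counterpart, FcγRIIB. Its libraries stood at 28.7, 10.6 and 9.24 CPM in WT libraries, at 0.319, 8.0 and 17.9 in δKO libraries and at 0.23, 5.52 and 3.58 in TKO libraries. All TKO libraries were below all WT libraries, and the δKO libraries were spread from near the lowest TKO library to between the WT libraries. The difference of TKO on the log2 scale was −2.38 against WT (standard error 1.25, adjusted p = 1.00) and −1.49 against δKO (standard error 1.22, adjusted p = 0.69). TKO replicate 1 and δKO replicate 1, the lowest libraries of this gene, had 12 and 8 counts. Of the 50-base stretches in the longest annotated coding transcript of Fcgr3, 12.8% also occur in that of Fcgr2b, so a part of the reads could be assigned to either gene.

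Csf3r (ENSMUSG00000028859.14, chr4:126024550-126044440, plus strand) encodes the G-CSF receptor, through which granulocyte production is stimulated. Its level stood at 266, 155 and 198 CPM in WT libraries, at 205, 175 and 262 in δKO libraries and at 50.9, 142 and 109.6 in TKO libraries. WT and δKO libraries were intermixed, and each TKO library lay below all 6 of them. Mean levels (± SD, n = 3) came to 206 ± 55.8 CPM for WT, 214 ± 44.2 for δKO and 101 ± 46.2 for TKO, the smallest spread relative to the mean among the 10 genes in δKO. TKO differed by −1.03 from WT in log2 terms (standard error 0.36, adjusted p = 1.00) and by −1.08 from δKO (standard error 0.36, adjusted p = 0.465). The log2 value of δKO relative to WT was 0.05 (standard error 0.356, adjusted p = 0.987), a sign that changed with the upper-quartile factors. Both TKO comparisons share the TKO libraries and are not independent. Over its alternatives the adjusted p of Csf3r in TKO against WT ranged from 0.157 to 1.00.

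Csf1r (ENSMUSG00000024621.15, chr18:61100598-61132149, plus strand) encodes the M-CSF receptor, on which monocytes and macrophages depend. Its libraries stood at 34.6, 21.8 and 10.8 CPM in WT libraries, at 2.43, 27.2 and 20.3 in δKO libraries and at 5.43, 17.3 and 7.14 in TKO libraries. TKO replicate 2 exceeded WT replicate 3, so the genotypes overlapped. TKO against WT gave −1.17 in log2 terms (standard error 0.798, adjusted p = 1.00) and relative to δKO −0.74 (standard error 0.792, adjusted p = 0.777). Csf1r overlaps Hmgxb3 on the opposite strand, which had 738 to 1785 counts per library, and whether counting used the strand is not given in the sources used here.

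The receptor for GM-CSF is a pair of an α chain that binds the ligand, encoded by Csf2ra, and a β chain that signals, encoded by Csf2rb and shared with the receptors for IL-3 and IL-5. Csf2ra (ENSMUSG00000059326.6, chr19:61223957-61228429, minus strand) was measured at 62.9, 34.3 and 38.2 CPM in WT libraries, at 7.74, 21.9 and 123 in δKO libraries and at 11.9, 29.0 and 19.3 in TKO libraries. All TKO libraries lay below all WT libraries, and the δKO libraries held both the lowest and the highest value. Csf2ra differed in TKO by −1.17 on the log2 scale from WT (standard error 0.777, adjusted p = 1.00) and by −1.34 from δKO (standard error 0.78, adjusted p = 0.568). The value against δKO turned to 0.43 without the unnumbered δKO library.

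Csf2rb (ENSMUSG00000071713.4, chr15:78325752-78353847, plus strand) stood apart from the α chain. It was found at 173, 99.9 and 116 CPM in WT libraries, at 41.6, 125 and 104 in δKO libraries and at 109, 187 and 91.4 in TKO libraries. The WT and TKO means differed by less than the spread between replicates (129.6 ± 38.3 and 129 ± 50.7 CPM, SD, n = 3), and in log2 terms TKO differed from WT by −0.0058 (standard error 0.411, adjusted p = 1.00). TKO against δKO gave 0.52 in log2 terms (standard error 0.412, adjusted p = 0.682), which went to 0.15 without TKO replicate 2, 0.17 without δKO replicate 1 and 0.82 without δKO replicate 2. Csf2rb2, the mouse duplicate of Csf2rb that serves IL-3 alone, lies beside it at chr15:78282507-78305721. It was measured at 3.70, 12.9 and 17.9 CPM in WT libraries, at 0.359, 7.14 and 5.27 in δKO libraries and at 15.9, 28.7 and 20.2 in TKO libraries. All TKO libraries lay above all δKO libraries (log2 fold change 2.34, standard error 0.913, adjusted p = 0.465), while WT and TKO overlapped. Of the 50-base stretches of the longest Csf2rb coding transcript 18.4% also occur in Csf2rb2, so the split of reads between them is uncertain.

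The balance of the GM-CSF receptor chains was compared as the ratio of Csf2ra to Csf2rb, each in CPM per kb of exon, a pair of genes set together after their values were seen, so no test is given. The ratio was 0.922, 0.87 and 0.834 in the WT libraries and 0.277, 0.393 and 0.535 in the TKO libraries. In δKO it was 0.471, 0.444 and 3.0. The WT ratios were close to each other and above every TKO ratio, and the δKO ratios lay on both sides.

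Cebpa (ENSMUSG00000034957.10, chr7:35119293-35121928, plus strand) is an intronless gene whose product, C/EBPα, is required for the step into the granulocyte-monocyte lineage. Transcripts were found at 49.6, 24.3 and 13.2 CPM in WT libraries, at 0.519, 28.6 and 66.1 in δKO libraries and at 1.87, 8.66 and 2.88 in TKO libraries. All 3 TKO libraries were below all WT libraries, and δKO held the lowest and the highest of the 9 values, 127-fold apart. Mean levels (± SD, n = 3) came to 29.0 ± 18.6 CPM for WT, 31.7 ± 32.9 for δKO and 4.47 ± 3.66 for TKO. TKO differed by −2.70 from WT in log2 terms (standard error 1.16, adjusted p = 1.00) and by −2.83 from δKO (standard error 1.17, adjusted p = 0.465). DESeq2 on the groups compared called Cebpa lower in TKO than in WT (adjusted p = 0.0037), and DESeq2 on all 9 libraries did not (adjusted p = 0.423).

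Cebpe (ENSMUSG00000052435.6, chr14:54710360-54712174, minus strand) encodes C/EBPε, which acts later, in precursors that form secondary granules. Its libraries stood at 39.1, 22.6 and 25.4 CPM in WT libraries, at 0.519, 12.6 and 78.2 in δKO libraries and at 0.191, 15 and 0.848 in TKO libraries. The WT libraries were within 1.74-fold of each other, whereas δKO spanned 151-fold and TKO 78.4-fold. All TKO libraries lay below WT. On the log2 scale TKO differed by −2.45 from WT (standard error 1.5, adjusted p = 1.00) and by −2.51 from δKO (standard error 1.51, adjusted p = 0.579). The value against WT was −4.87 with the replicate block, −4.31 with limma on the deposited normalized values and −4.02 with genes detected per library as a covariate, and that against δKO was −0.145 with the block. In TKO the mean rested on replicate 2, which had 516 counts against 10 and 40 in replicates 1 and 3.

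Spi1 (ENSMUSG00000002111.8, chr2:91082390-91115756, plus strand), which encodes PU.1, had the most counts of the factor genes. Its level lay at 137, 58.7 and 100 CPM in WT libraries, at 22.2, 75.4 and 199.8 in δKO libraries and at 33.9, 116 and 48.2 in TKO libraries. Libraries of the 3 genotypes were intermixed, with TKO replicate 2 above both lower WT libraries. For TKO relative to WT the log2 value was −0.58 (standard error 0.668, adjusted p = 1.00) and relative to δKO −0.59 (standard error 0.669, adjusted p = 0.795). Without the unnumbered δKO library the latter was 0.43.

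Irf8 (ENSMUSG00000041515.9, chr8:120736358-120756694, plus strand) encodes a factor required for monocytes and dendritic cells and had the lowest level per kb of the 10 genes in δKO. It was measured at 33.2, 24.5 and 10.2 CPM in WT libraries, at 0.279, 21.1 and 1.59 in δKO libraries and at 4.34, 19.6 and 12.3 in TKO libraries. TKO lay inside the combined range of the other libraries, and 2 of the 3 δKO libraries lay below all TKO and WT libraries. Log2 fold changes came to −0.91 for TKO against WT (standard error 1.14, adjusted p = 1.00), 0.65 for TKO against δKO (standard error 1.13, adjusted p = 0.874) and −1.56 for δKO against WT (standard error 1.15, adjusted p = 0.778). With a library left out, TKO against δKO ranged from 0.079 without δKO replicate 1 to 3.68 without δKO replicate 2, and was 0.11 without TKO replicate 2 and 0.17 without the unnumbered δKO library. The value of δKO against WT was −0.99 without δKO replicate 1 and −4.59 without δKO replicate 2.

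Irf8 and Cebpe, whose products belong to the monocytic and the granulocytic branch, were set beside each other across libraries. The Pearson correlation of their log2 CPM was 0.424 over the 9 libraries and −0.272 without δKO replicate 1 and TKO replicate 1. In CPM per kb of exon, Cebpe exceeded Irf8 in all 3 WT libraries (18.2 to 31.5 against 1.45 to 4.70) and in all 3 δKO libraries. TKO replicates 1 and 3 had the reverse order, with Irf8 at 0.615 and 1.74 and Cebpe at 0.154 and 0.683 CPM per kb, whereas TKO replicate 2 had the WT order (2.78 for Irf8 and 12.1 for Cebpe). The ratio of Irf8 to Cebpe was thus 0.149, 0.191 and 0.0711 in WT, 3.99, 0.23 and 2.54 in TKO and 0.0947, 0.293 and 0.00357 in δKO. The unnumbered δKO library had the highest Cebpe of the 9 libraries, and its Irf8 was the second lowest. This pair was also chosen after its values were seen and has no test.

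**Figure D2:**
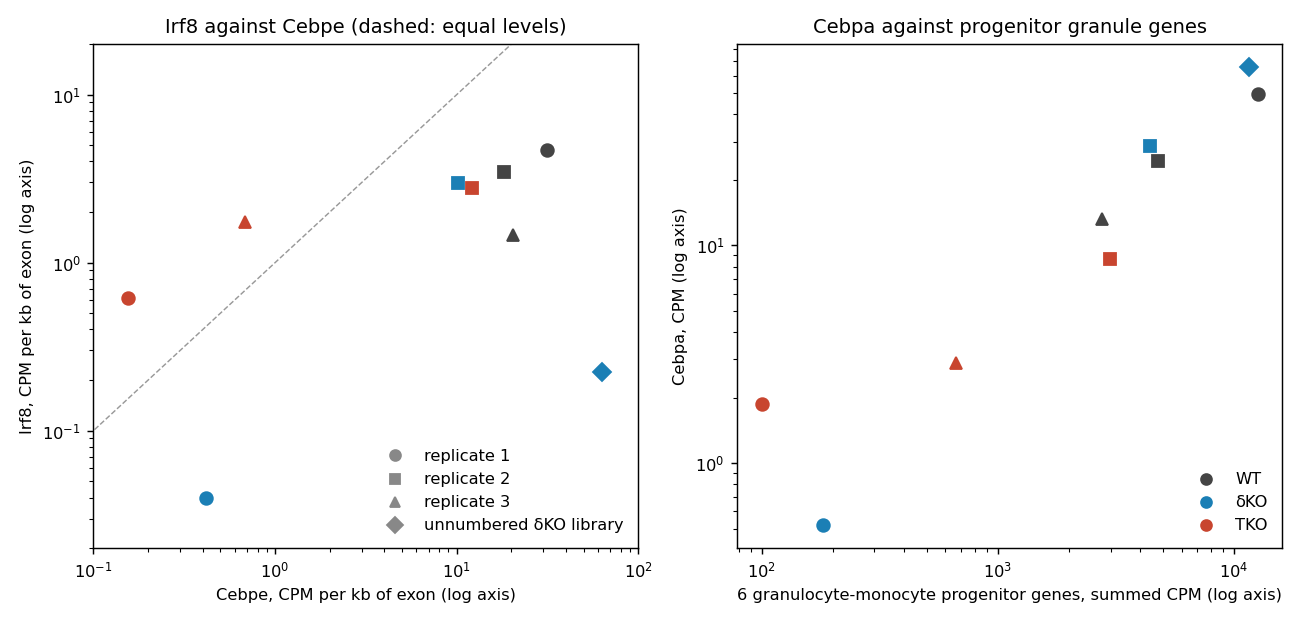
The left panel plots Irf8 against Cebpe in CPM per kb of exon, and the right panel Cebpa in CPM against the summed CPM of 6 granulocyte-monocyte progenitor genes, with log axes and 1 symbol per library. TKO replicates 1 and 3 lie above the dashed line of equal levels, and Cebpa was lowest in the 3 libraries whose progenitor genes summed to 101, 183 and 663 CPM.

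The promoters of the members were read for the binding letters of the factors among them, because the receptor genes Fcgr3, Fcgr2b, Csf3r and Csf2ra lay below WT in every TKO library, as did Cebpa. RefSeq's table of promoter windows (GRCm38.p6) held 8 windows of 6 members (Fcgr3, Fcgr2b, Csf3r, Csf2ra, Cebpa and Irf8), of which the 250 bases before the start were searched on both strands. GAGGAA, the core of PU.1 sites, was present in 3 of 6 members and in 4 of their 8 windows, and in 23.3% of all 32851 windows. TTNNGNAA, the full C/EBP site, was present in 2 of 6 members and 3 of 8 windows, against 36.8% of all windows, and GCAAT, the short site, in 1 of 8 against 23.1%. The 2 windows of Fcgr3 overlap each other. A full C/EBP site can share letters with the other motifs, which did not happen in the sequences shown. The following windows, written 5′ to 3′ on the strand of the gene with matches in capitals, show the receptors with matches to both kinds of site and the factor genes with none.
Csf2ra, chr19:61228419-61228668, minus strand: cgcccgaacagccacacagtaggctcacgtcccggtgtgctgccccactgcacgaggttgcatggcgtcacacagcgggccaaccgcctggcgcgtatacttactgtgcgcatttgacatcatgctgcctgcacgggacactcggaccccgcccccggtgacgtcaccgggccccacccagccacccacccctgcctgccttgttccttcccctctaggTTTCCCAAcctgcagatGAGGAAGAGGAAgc
Fcgr3, chr1:171059404-171059626, minus strand: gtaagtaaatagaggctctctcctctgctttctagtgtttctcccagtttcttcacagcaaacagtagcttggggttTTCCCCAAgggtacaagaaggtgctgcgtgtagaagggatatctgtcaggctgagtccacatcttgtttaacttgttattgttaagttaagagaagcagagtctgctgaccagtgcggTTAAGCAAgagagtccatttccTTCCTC
Cebpa, chr7:35119043-35119292, plus strand: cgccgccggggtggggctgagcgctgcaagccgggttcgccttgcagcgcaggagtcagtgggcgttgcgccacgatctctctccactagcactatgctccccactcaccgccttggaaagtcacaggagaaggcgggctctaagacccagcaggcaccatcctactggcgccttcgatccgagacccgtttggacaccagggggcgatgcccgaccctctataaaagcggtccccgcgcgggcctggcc
Irf8, chr8:120736108-120736357, plus strand: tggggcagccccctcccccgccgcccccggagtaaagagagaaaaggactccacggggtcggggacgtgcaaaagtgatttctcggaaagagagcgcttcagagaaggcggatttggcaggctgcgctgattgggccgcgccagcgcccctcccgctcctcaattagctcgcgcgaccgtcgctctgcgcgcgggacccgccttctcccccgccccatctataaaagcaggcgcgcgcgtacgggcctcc
In Csf2ra the capitals mark a C/EBP match at 31 to 24 bases before the start on the opposite strand and PU.1 letters at 14 to 9 and 8 to 3 bases before it. The Fcgr3 window precedes a transcript start inside the annotated gene, at base 171059394, and is trimmed here to the bases outside annotated untranslated exons. It has C/EBP matches at 155 to 148 bases before the start on the opposite strand and at 37 to 30 bases on the strand of the gene, and PU.1 letters on the opposite strand at 15 to 10 bases. Csf3r, not printed since its window runs into an annotated untranslated exon, has PU.1 letters at 86 to 81 and the short site at 9 to 5 bases. No window of Cebpa, Irf8 or Fcgr2b held any of these letters. A match is a description of these bases and does not show binding.

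The members were then read against the fit over all genes, to set the loss of P110α and P110β, the loss of P110δ and both together beside each other. A gene was called when its Benjamini-Hochberg adjusted p in edgeR's quasi-likelihood test was under 0.05 and it differed more than 2-fold. In TKO against WT 0 of the 10 members were called, and of all genes 1 was (0.00549%). At an unadjusted p under 0.05, 3 members were lower in TKO (Fcgr3, Csf3r and Cebpa), as were 2.5% of all genes. All 10 log2 fold changes were below 0, with a median of −1.17 beside 0.0172 over all genes. The sign of Csf2rb, whose value was close to 0, changed in 8 of 18 alternatives and that of Irf8 in 1. DESeq2 on the groups compared called 2 members (Fcgr3 and Cebpa) and 1.63% of all genes as lower, and on all 9 libraries it called 0 members and 0.3% of genes. With limma on the deposited normalized values, 0 members and 1 gene were called, the gene as higher in TKO. The count of 3 went to 1 without WT replicate 1, where the share of all genes was 1.52%.

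In TKO against δKO 0 of 10 members and 0 of 18205 genes (0%) were called by edgeR's test. DESeq2 called 0 members too, where it called 3.1% of all genes on all 9 libraries and 1.52% on the groups compared, and limma called 0 members and 0 genes. Fcgr3, Csf3r and Cebpa had an unadjusted p under 0.05, 3 members in all, where 5.56% of all genes were lower at that level. Of the 10 values 8 were below 0 (median −1.21, beside −0.0554 over all genes), and Csf2rb and Irf8 were above 0. Without δKO replicate 1 the count of 3 went to 5, beside 6.7% of all genes. When genes detected per library entered the fit as a covariate it was 1, beside 1.99%. Upper-quartile factors moved the median over all genes here by 0.139, and no member changed sign with them.

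In δKO against WT edgeR's test called 0 members and 1 gene in all (0.00549%). DESeq2 called 0 members as well, against 1.04% of all genes on all 9 libraries and 1% on the groups compared, and limma called 0 members and 1 gene. At the unadjusted level 0 members had an unadjusted p under 0.05, against 7.01% of all genes in either direction. No member had separate libraries, against 11.5% of all genes. The values were divided between 5 above and 5 below 0, with a median of −0.106 beside 0.0459 over all genes, and 7 of the 10 changed sign under at least 1 alternative. The 3 comparisons share their libraries in pairs, so their values are not independent of each other.

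**Figure D3:**
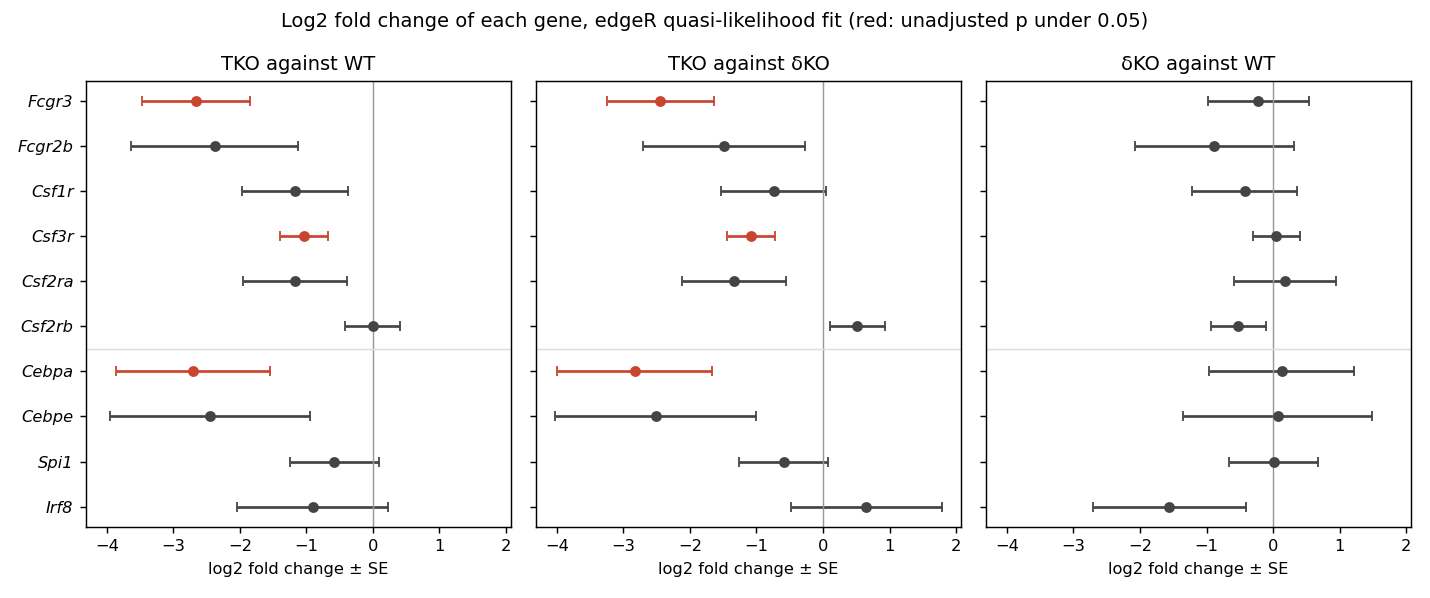
Log2 fold change of each gene with its standard error in the 3 comparisons, from edgeR's quasi-likelihood fit to all 9 libraries, with an unadjusted p under 0.05 in red. Fcgr3, Csf3r and Cebpa are red in both TKO comparisons and the values of δKO against WT scatter around 0.

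Within each genotype 1 library was the highest for most of the members. WT replicate 1 was the highest WT library for all 10 genes, while replicates 2 and 3 were each the lowest for 5. In TKO, replicate 2 was the highest for all 10 and replicate 1 the lowest for 9, with summed levels of 219, 552 and 298 CPM in replicates 1, 2 and 3. In δKO, replicate 1 was the lowest for 9 and the unnumbered library the highest for 7, with summed levels of 292, 520 and 926 CPM. Over the 45 pairs of members the Pearson correlation of log2 CPM across the 9 libraries had a median of 0.74 (from −0.0536 for Csf3r and Irf8 to 0.947), and without δKO replicate 1 and TKO replicate 1 of 0.684 (from −0.614 to 0.972). Without these libraries the correlation of Irf8 went from 0.332 to −0.614 with Csf2ra and from 0.43 to −0.506 with Spi1. These points share library, depth and cell composition.

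Which library was left out therefore set much of the size of the differences. In TKO against WT the values were farthest from 0 without TKO replicate 2 for all 10 genes. Without that library the log2 fold change was −5.81 for Cebpe, −4.07 for Fcgr3, −3.61 for Cebpa, −3.09 for Fcgr2b, −1.84 for Csf1r, −1.45 for Irf8 and −1.27 for Spi1. Without WT replicate 1 it was −0.71 for Csf1r, and without TKO replicate 1 it was −0.27 for Spi1 and −0.51 for Irf8. In TKO against δKO, without the unnumbered δKO library, the value was −0.32 for Cebpe, −0.43 for Fcgr2b and −1.71 for Cebpa. Without TKO replicate 2 it was −5.88 for Cebpe, −3.85 for Fcgr3, −3.74 for Cebpa, −2.20 for Fcgr2b and −1.41 for Csf1r in that comparison. Csf1r went to −0.20 without δKO replicate 2. Csf3r moved least among the members that had an unadjusted p under 0.05, from −1.42 to −0.77 against δKO and from −1.37 to −0.72 against WT.

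**Figure D4:**
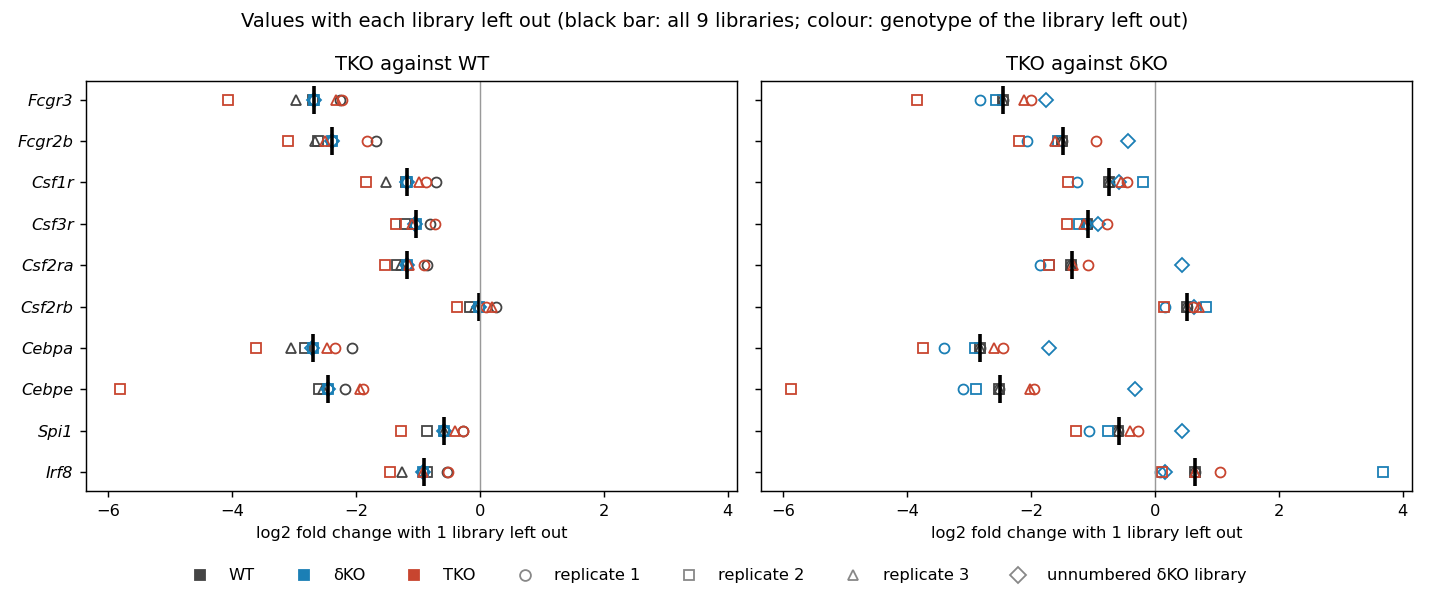
Log2 fold change of each gene in TKO against WT and against δKO with each of the 9 libraries left out in turn, 1 open symbol per library left out, and a black bar for the value with all 9. In TKO against WT, Csf2rb is the gene whose values lie on both sides of 0, and in TKO against δKO, Csf2ra and Spi1 cross 0 without the unnumbered δKO library.

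The sort was checked against markers of the cells it should hold and of others. All 8 LT-HSC markers (such as Kit, Procr and Mecom) were counted in every library and summed to 1184 to 1368 CPM in WT, 1119 to 2466 in δKO and 1576 to 1954 in TKO. Kit, Procr and Mecom were highest in δKO replicate 1. Ly6a of the same list, the gene of the gated antigen Sca1, was lowest there. It was at 2.15, 20.4 and 10.2 CPM in δKO, against 20.1 to 28.3 in WT and 24.5 to 37.3 in TKO. Mpo, Elane, Prtn3, Ctsg, Ms4a3 and Fcnb, the 6 granulocyte-monocyte progenitor markers, were also counted in every library. They summed to 12590, 4753 and 2760 CPM in WT, to 183, 4415 and 11620 in δKO and to 101, 2976 and 663 in TKO. The libraries low in Cebpa, Cebpe and Fcgr2b were those low in these genes, and the part of such cells, which lack Sca1 and would be removed by the gate, was not tested. The 10 neutrophil markers summed to 8737 CPM in WT replicate 3, against 83.7 to 1735 in the other libraries. With WT replicate 3 left out, the 6 members that separated TKO from WT were joined by Csf1r and Irf8. Monocyte and macrophage markers summed to 455 to 1146 CPM in WT, 203 to 529 in δKO and 199.8 to 725 in TKO, with 6 of 10 counted in every library. Most of the highest sum was Lyz2, at 1020 CPM in WT replicate 3, the library with the most neutrophil markers. B cell, T and NK cell, mast cell and basophil, and stromal markers each summed to at most 30.1 CPM, and Cd3e, Cd3g and Cd8a were at 0 in all 9 libraries. Erythroid markers summed to at most 105 CPM and megakaryocyte markers to 90.8 to 265 CPM. Flt3 and Cd48, whose products the gate excluded, summed to 133, 50.15 and 61.6 CPM in WT, to 12.9, 76.3 and 63.8 in δKO and to 26.3, 48.6 and 49.0 in TKO. The sum was thus lower in every TKO library than in any WT library, as was Cd48, whereas Flt3 overlapped (12.35, 36.1 and 39.3 CPM in TKO, 115, 27.0 and 39.8 in WT). WT replicate 1 had the highest sum, and the part of these cells in the results was not tested.

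Genes that act with the members were taken from lists chosen by function, with earlier results of these data known. Among 17 other myeloid receptors and receptor partners, 16 were tested and 0 were called in any comparison, and in TKO against WT 13 were below 0 (median −0.91), as were 8888 of all 18205 genes, and 3 lay below in every library, beside 7.47% of all genes. Cd33, a sialic acid-binding lectin of myeloid cells, differed on the log2 scale by −2.97 in TKO (standard error 1.25, adjusted p = 1.00) and by −3.12 in δKO (standard error 1.26, adjusted p = 0.699), each relative to WT. Its WT libraries were at 14.5, 3.57 and 48.1 CPM, the highest being WT replicate 3, which also had the most neutrophil markers, and those of TKO at 1.07, 6.60 and 0.784, so the genotypes overlapped. Ifngr1, a chain of the interferon γ receptor, averaged 142 ± 76.8 CPM for WT and 46.6 ± 30.5 for TKO (SD, n = 3), and its TKO libraries were all below WT. Il3ra, the α chain that pairs with Csf2rb for IL-3, averaged 9.63 ± 2.89 CPM for δKO and 2.79 ± 1.62 for TKO (SD, n = 3), and TKO differed from δKO by −1.79 in log2 terms (standard error 0.717, adjusted p = 0.465). Of 6 ligand genes 1 had enough counts. This was Csf1, the gene of M-CSF, which averaged 11.3 ± 1.78 CPM for WT, 3.16 ± 2.70 for δKO and 6.22 ± 2.22 for TKO (SD, n = 3). Il3 was at 0 in all libraries.

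Among 18 other myeloid transcription factors, 17 were tested, 0 were called and their median was −0.33 on the log2 scale in TKO against WT, with 11 below and 6 above 0. Cebpd, a C/EBP family gene induced in maturing granulocytes and by inflammation, was at 14.1, 11.5 and 12.1 CPM in WT libraries, at 0.199, 1.57 and 3.72 in δKO libraries and at 0.708, 2.03 and 0.403 in TKO libraries. Every library of both mutant genotypes lay below every WT library. Its log2 fold change was −3.59 in TKO (standard error 1.08, adjusted p = 1.00) and −2.78 in δKO (standard error 1.04, adjusted p = 0.699). Irf4, a relative of Irf8 active in lymphoid and dendritic cells, was at 7.08, 1.57 and 2.52 CPM in TKO against 0.185, 0.0569 and 0.358 in WT (log2 fold change 4.21, standard error 1.77, adjusted p = 1.00). Egr2, an immediate early gene that favors macrophages, averaged 16.2 ± 9.06 CPM for WT and 5.72 ± 5.32 for δKO (SD, n = 3). Zeb2, a zinc finger repressor, averaged 333 ± 101 CPM for δKO and 206 ± 20.1 for TKO, and Myb, a factor of proliferating progenitors, 514 ± 132 for δKO and 321 ± 58.7 for TKO (SD, n = 3). Every TKO library lay below all δKO libraries for Zeb2 and Myb.

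The 19 signalling proteins of the receptors had a median log2 value of −0.02 when TKO was set against WT, and 0 were called. Of these 19 genes, 3 were higher in every TKO library than in any WT library and 1 was lower. Of all 18205 genes, 1253 were higher and 1360 lower in this way. Cish and Socs2, feedback inhibitors induced by STAT5, were among the 3 that were higher. Cish was at 10.9, 33.6 and 32.5 CPM in TKO against 3.44, 10.7 and 5.59 in WT (log2 fold change 1.97, standard error 0.759, adjusted p = 1.00). Socs2 was at 60.6, 71.1 and 61.3 CPM in TKO against 9.15, 25.8 and 20.3 in WT (log2 fold change 1.80, standard error 0.788, adjusted p = 1.00). In δKO, replicate 1 had 128 CPM of Socs2 and 52.9 of Cish while the other δKO libraries were within or near the WT range. Pik3r1, the regulatory subunit of class IA PI3K, averaged 232 ± 23.2 CPM for WT, 398 ± 226 for δKO and 202 ± 24.5 for TKO (SD, n = 3). Cbl, a ubiquitin ligase that ends receptor signaling, averaged 410 ± 99.8 CPM for δKO and 286 ± 45.6 for TKO (SD, n = 3). The 6 primary granule genes, which are the same 6 as the progenitor markers, were all below 0 in TKO against WT (median −2.36) and against δKO (median −2.15), and 0 were called. Mpo, the gene of myeloperoxidase, averaged 4628 ± 3828 CPM for WT, 3453 ± 3582 for δKO and 792 ± 967 for TKO (SD, n = 3). Fcnb averaged 89.3 ± 32.9 CPM for WT, 128 ± 185 for δKO and 15.2 ± 14.8 for TKO, and Elane, the gene of neutrophil elastase, 1071 ± 1297 for δKO and 236 ± 293 for TKO (SD, n = 3).

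Levels of the members relative to each other were compared per kb of exon. In WT the order was Csf3r (57.1 ± 15.5 CPM per kb), Spi1 (36.6 ± 14.5), Cebpe (23.4 ± 7.15), Fcgr3 (20.3 ± 9.62), Csf2rb (17.8 ± 5.26), Csf2ra (15.7 ± 5.40), Cebpa (11 ± 7.06), Csf1r (3.88 ± 2.07), Irf8 (3.21 ± 1.64) and Fcgr2b (2.79 ± 1.87, SD, n = 3). The libraries of neighbors in that order overlapped, and the means of neighbors differed by more than the larger SD from Csf3r to Spi1 and from Cebpa to Csf1r alone. In TKO, Csf3r (27.9 ± 12.8 CPM per kb) and Spi1 (24.5 ± 16.2) were again the highest, followed by Csf2rb (17.7 ± 6.97), whose 3 libraries lay above those of Csf2ra, the next gene, and Fcgr2b (0.537 ± 0.462) was again the lowest. Cebpe stood at 4.31 ± 6.74 and Fcgr3 at 3.20 ± 3.46 CPM per kb, below Csf2ra (6.99 ± 2.98), and Csf1r, Irf8 and Cebpa lay between 1.70 and 1.73 (SD, n = 3). In δKO the order began with Csf3r (59.2 ± 12.3 CPM per kb) and ended with Irf8 (1.08 ± 1.65, SD, n = 3).

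For each member the genes with the most similar profile over the 9 libraries were listed, among 11805 genes that reached 5 CPM in at least 1 genotype. The Pearson correlations of the 3 nearest genes ranged from 0.959 to 0.993, as a description of these libraries, which all 3 genotypes share. Ifngr1, named above among the receptors, was nearest to Cebpa (r = 0.988, Spearman's rho = 1.00, r = 0.977 without δKO replicate 1 and TKO replicate 1). Ncam1, which encodes the adhesion molecule CD56, was nearest to Cebpe (r = 0.993, rho = 1.00, r = 0.986 without the same libraries), followed by Dstn (r = 0.988) and the complement gene C3 (r = 0.985). Lamp2, a lysosomal membrane gene, was nearest to Fcgr3 (r = 0.975, rho = 0.95, r = 0.891 without TKO replicates 1 and 3), followed by Alas1 (r = 0.97). Abcd2 was nearest to Fcgr2b (r = 0.99), Cry1 to Csf1r (r = 0.978), Nlrx1 to Csf3r (r = 0.97), Slc28a2 to Csf2ra (r = 0.978), Mmachc to Csf2rb (r = 0.984), Hspa2 to Spi1 (r = 0.977) and Ak3 to Irf8 (r = 0.967, and 0.79 without δKO replicate 1 and the unnumbered δKO library). For the other 6 of these genes r was 0.908 to 0.979 with the 2 farthest libraries left out.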

How the data were processed

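Total RNA of sorted LT-HSCs was extracted and its cDNA amplified with the Ovation RNA-Seq System V2, while the labels give the molecule as polyA RNA. According to the submitters' processing notes, reads were trimmed with Trim Galore 0.3.7, checked with FastQC 0.11.4 and aligned to mm10 with STAR 2.5.1b. The authors deposited raw counts per gene for 9 libraries, and a normalized signal that equals these counts divided by DESeq2's size factor (0.59 to 1.45), which was used as an alternative only. Positions are from GENCODE vM21 (mm10), in which 47224 of the 47643 identifiers were found. Counts were filtered with filterByExpr (count minimum 10, total 15), scaled with TMM factors and fitted with edgeR 4.0.16 (R 4.3.3) quasi-likelihood to all 9 libraries, with Benjamini-Hochberg adjustment over 18205 genes. Genes were called at an adjusted p under 0.05 and a 2-fold difference. The standard error is the log2 fold change divided by the square root of F. CPM per kb divides CPM by the summed exon length. Between 31300343 and 60386097 counts per library set the depth, and the common biological coefficient of variation was 0.805. Apart from genes with few counts in a library, variation between libraries and not counting thus sets the precision. Alternatives were DESeq2 1.42.0, limma 3.58.1 on log2(normalized value + 1), other scalings, no filter, the groups compared alone, a covariate, a replicate block, and each library left out. The rule for named genes took the members, the targeted genes, Csf2rb2, up to 2 genes per list and comparison by smallest p, and from the 3 genes nearest to each member, of which not all are named. Markers, Xist, Hmgxb3, Il3, Fcgr1, Fcgr4, Tyrobp, Gfi1 and Spib were named outside this rule, after their values were seen. Members and lists were chosen with earlier results of these data known, and counts of members at an unadjusted p or without overlap were followed through the alternatives after the data were seen. The fits were tested on data simulated with edgeR's own estimates of the spread, a setting that is not neutral between the methods. There edgeR and DESeq2 both missed most 4-fold changes and found most 16-fold changes, and DESeq2 made more false calls. Figures were drawn with matplotlib 3.10.9.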

Additional observations from a re-analysis of the deposited data

How the results depend on the processing

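Of 18 alternatives for each member, 8 members kept their sign in all in TKO against WT, 7 in TKO against δKO and 3 in δKO against WT. The number of genes called in TKO against WT went from 1 to 125 with DESeq2 on all 9 libraries, to 575 with DESeq2 on the groups compared and to 9 with edgeR on them, and was 1 to 4 with a library left out. In TKO against δKO it went from 0 to 548 and 267 with these DESeq2 fits, and in δKO against WT from 1 to 188 and 194, and to 0 with edgeR on the groups compared. Members called in TKO against WT went from 0 to 2 with DESeq2 on the groups compared. Members lower at an unadjusted p under 0.05 in TKO against WT went from 3 (2.5% of all genes) to 5 with no filter (3.25%), 6 with DESeq2 (4.95%) and 5 with edgeR (4.46%) on the groups compared, and were 1 to 4 with a library left out (1.31% to 4.28%). Against δKO they were 1 with the covariate (1.99%) and 2 to 5 with a library left out (3.12% to 8.17%). Members with separate libraries were 6 to 8 against WT and 1 to 5 against δKO with a library left out. Leaving out a library of the groups compared also raised the share of all genes that separated, to 11.6% to 15.5% against WT and to 7.11% to 11.5% against δKO.

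The value of Csf2rb in TKO against WT turned to 0.00115 with DESeq2's size factors, 0.000945 with DESeq2 on all 9 libraries, 0.00124 with DESeq2 and 0.0041 with edgeR on the groups compared and 0.0119 with the covariate, and ranged from −0.37 to 0.25 with a library left out. Irf8 turned to 0.066 with the covariate. In δKO against WT, the upper-quartile factors, which moved the median of all genes by −0.15, gave −0.11 for Csf3r, −0.079 for Cebpe and −0.13 for Spi1. With the covariate the value was −0.30 for Csf3r, −0.79 for Csf2ra, −0.44 for Cebpa, −1.92 for Cebpe and −0.62 for Spi1. The deposited normalized values in limma gave −0.63 for Csf2ra, −1.30 for Cebpa, −1.77 for Cebpe and −0.40 for Spi1. In that comparison, leaving out a library gave −0.91 to 0.19 for Fcgr3, −0.97 to 0.084 for Csf1r, −0.12 to 0.27 for Csf3r, −1.60 to 0.68 for Csf2ra, −0.99 to 0.76 for Cebpa, −2.13 to 0.65 for Cebpe and −1.01 to 0.48 for Spi1. In TKO against δKO it ranged from −1.86 to 0.43 for Csf2ra and −1.28 to 0.43 for Spi1. Also in TKO against δKO, limma gave −0.35 for Csf1r, −0.565 for Csf2ra, −1.49 for Cebpa, −0.29 for Spi1 and 2.21 for Irf8, and the covariate −0.66 for Csf2ra, −0.26 for Spi1 and 1.21 for Irf8. The cause was not tested.

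Deviations from the genotype means of same-numbered libraries of different genotypes had r from −0.0359 to 0.0829. Those of differently numbered libraries had r from −0.0921 to 0.121. The unnumbered δKO library had r of −0.0366 with WT replicate 3 and −0.0405 with TKO replicate 3. With 3 libraries per genotype, these values cannot show whether the replicate numbers pair the samples. In the fit with the replicate block, the unnumbered δKO library has a level of its own and adds nothing to the estimate. It was not put in the block of replicate 3, its number in the normalized values. In this fit 6 members had an unadjusted p under 0.05 in TKO against WT and 1 in TKO against δKO, where 3.11% and 3.44% of all genes were lower at that level. The block turned the value in TKO against δKO to 0.12 for Csf1r, 0.56 for Csf2ra and 0.57 for Spi1, brought it to −0.0055 for Fcgr2b, −0.145 for Cebpe, −0.69 for Cebpa and −1.63 for Fcgr3, and raised it to 0.845 for Csf2rb and 1.16 for Irf8. It turned the value in δKO against WT to −0.11 for Csf3r, −1.87 for Csf2ra, −2.56 for Cebpa, −4.73 for Cebpe and −1.46 for Spi1. With 7 to 13 counts for Irf8, Fcgr2b, Cebpa and Cebpe in the lowest libraries, depth limits the values there.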

Other observations

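Fcgr1, which encodes the high-affinity IgG receptor of monocytes and macrophages and was singled out after its values were seen, was measured at 8.07 CPM in TKO replicate 1 and at 0 to 0.0581 CPM in the other 8 libraries. In the same library Fcgr3 and Fcgr2b were at their lowest of the 9 libraries, and Fcgr4 was at 0. Among the other listed genes chosen in the same way, Tyrobp, an adaptor of activating myeloid receptors, was at 11.5 and 7.23 CPM in TKO replicates 1 and 3 and at 107 CPM in TKO replicate 2, against 59.9 to 107 in WT. Gfi1, a repressor that favors granulocytes over monocytes, was at 4.32 and 6.25 CPM in TKO replicates 1 and 3 and at 30.1 in TKO replicate 2, against 24.7 to 51.3 in WT and 4.19, 37.1 and 76.9 in δKO. Spib, a relative of Spi1 active in lymphoid and dendritic cells, was at 5.22, 1.66 and 4.28 CPM in TKO, at 0.168, 3.07 and 0.0955 in WT and at 0.918, 0.374 and 1.18 in δKO.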
